A study of Drepana arcuata with 6 samples.

Results

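Drepana arcuata, the masked birch caterpillar, is a moth larva whose transcripts were assembled without a genome, and 5 of the 116079 assembled genes are described here with all 91 of their isoforms, out of 231348 isoforms in all. They are the trithorax gene (TRINITY_DN20585_c1_g1, 23 isoforms), the WDR12 gene (TRINITY_DN22418_c3_g1, 37 isoforms), the S-phase kinase-associated protein gene, here Skp (TRINITY_DN18525_c2_g1, 6 isoforms), the cytosolic carboxypeptidase gene (TRINITY_DN22359_c0_g1, 17 isoforms) and the proteoglycan Cow gene (TRINITY_DN17012_c1_g1, 8 isoforms). They were chosen because the study lists 1 isoform of each among its transcripts that differ between early and late instars, and every isoform sharing the gene identifier was taken. Each listed isoform, which is trithorax i5, WDR12 i31, Skp i1, carboxypeptidase i6 and Cow i1, was picked on these same libraries, so its own values are given as a description with no test. The names are those of the closest proteins in other species, and the contigs carry no genome position.

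RNA was extracted from whole larvae in 6 pools. The 3 late instar libraries came from pools of 5 larvae of instars IV and V, and the 3 early instar libraries from pools of 20 larvae of instars I and II. All larvae were offspring of 1 wild female and were fed on paper birch, so p-values measure the spread between pools of 1 family. Expected counts, the number of fragments that RSEM assigned to an isoform, summed to between 15109224 and 35571272 per late library and between 11177800 and 46307057 per early library. No library was a copy of another, since even the closest libraries of a stage differed by a chi-square of 21.8 per degree of freedom.

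In Drosophila, trithorax is a histone methyltransferase that keeps homeotic genes active through cell divisions. WDR12 is known in mammals as a partner of Pescadillo and Bop1 in the maturation of the large ribosomal subunit, and S-phase kinase-associated proteins are parts of SCF ubiquitin ligases, which mark proteins for degradation. Cytosolic carboxypeptidases in mammals trim glutamates from the tails of tubulin, and Cow in Drosophila is a secreted heparan sulfate proteoglycan that binds the Wingless signal. A Trinity gene is a group of contigs joined by shared sequence. Its isoforms may be splice forms, alleles or near-identical gene copies, which cannot be told apart here, and reads that fit several isoforms are divided between them by estimation.

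With isoforms summed, the Cow gene was far lower in late instars, the carboxypeptidase gene was modestly higher, and the other 3 genes did not pass the test. Levels are in CPM, which edgeR obtains by scaling counts to the TMM-adjusted library total. The limit for a call was 0.05 on the p of edgeR's quasi-likelihood test after Benjamini-Hochberg adjustment. Of these 5 genes 2 were called, 1 higher and 1 lower in late instars, while 29.7% of all 22132 genes tested were called, 14% higher and 15.7% lower. In bulk RNA of whole larvae, fewer cells of a type and less RNA per cell cannot be told apart.

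The Cow gene had 7.51, 10.7 and 8.84 CPM in late replicates 1, 2 and 3, against 133, 88.4 and 89.8 CPM in early replicates 1, 2 and 3. The groups were far apart, and the log2 fold change, late over early throughout, was -3.52 (SE 0.25, adjusted p = 3.53e-05, edgeR quasi-likelihood). The carboxypeptidase gene had 67.1, 75.4 and 54.2 CPM in late instars, against 42.7, 40.1 and 36.8 CPM in early instars. Every late pool lay above every early pool, by 1.65-fold on average (log2 fold change 0.72, SE 0.18, adjusted p = 0.0187, edgeR quasi-likelihood). That call was lost with edgeR's exact test (adjusted p = 0.056) and without early replicate 2 (adjusted p = 0.0665), and the adjusted p over all alternatives ranged from 0.00214 to 0.0665.

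The WDR12 gene had 254, 205 and 233 CPM in late instars, against 171, 186 and 183 CPM in early instars. The Skp gene had 177, 146 and 150 CPM in late instars, against 104, 123 and 141 CPM in early instars. In both genes the late pools lay above the early ones without overlap, but the difference was not called (log2 fold change 0.36 in each, SE 0.17 and adjusted p = 0.144 for WDR12, SE 0.19 and adjusted p = 0.193 for Skp, edgeR quasi-likelihood). The trithorax gene had 66.6, 65.7 and 56.4 CPM in late instars, against 72.5, 68.0 and 44.8 CPM in early instars. Its stages overlapped, with a log2 fold change of 0.03 (SE 0.22, adjusted p = 0.942, edgeR quasi-likelihood) whose sign turned without late replicate 1, late replicate 2 or early replicate 3 (lowest value -0.15). The stages did not overlap in 4 of the 5 genes, which was also true of 44.5% of all genes tested.

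**Figure D1:**
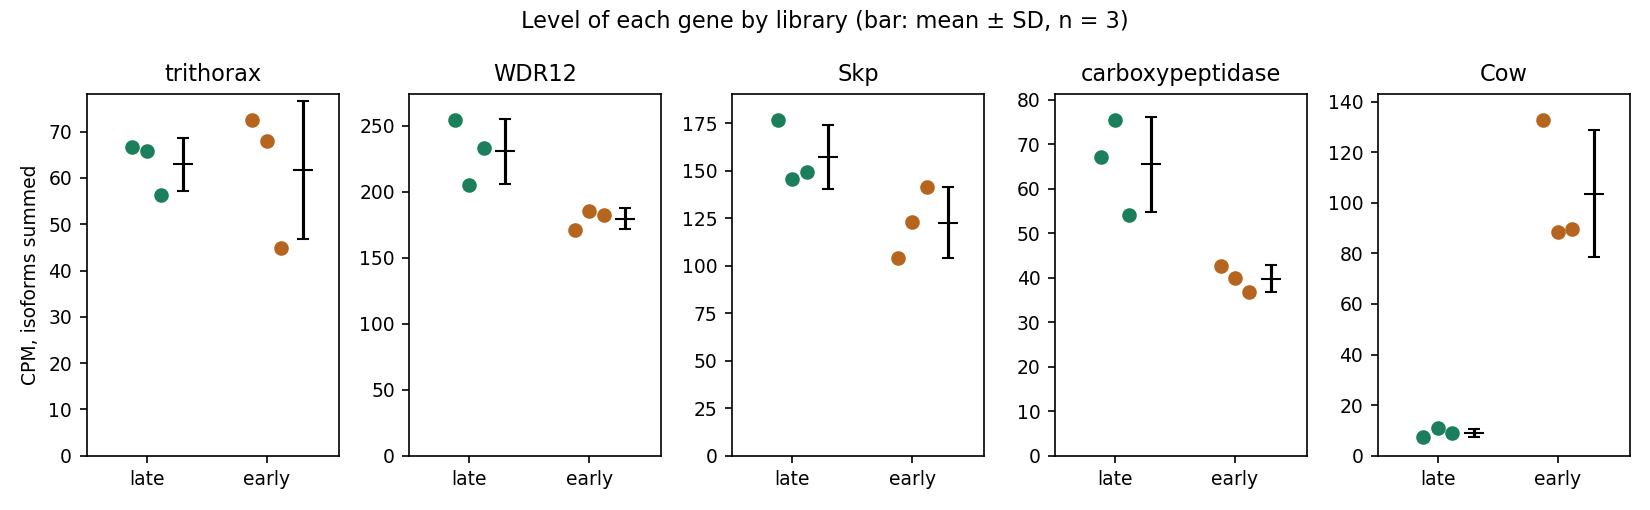
Summed CPM of each of the 5 genes in every library, with late instars left of early instars and the mean and SD of 3 libraries per stage. The Cow gene stood at 9.03 ± 1.63 CPM in late instars and 104 ± 25.2 CPM in early instars, and the stages of the trithorax gene overlapped.

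Per length, as TPM, Skp was the most abundant of the 5 genes in late instars and Cow the least. In late instars the Skp gene had 26.0 ± 4.53 TPM (SD, n = 3, as for all values in this form), the WDR12 gene 8.95 ± 2.0 TPM, the trithorax gene 3.69 ± 0.516 TPM, the carboxypeptidase gene 3.53 ± 0.873 TPM and the Cow gene 1.37 ± 0.152 TPM. Trithorax and carboxypeptidase overlapped there, while the other neighbours in the order did not overlap. In early instars the Skp gene had 17.5 ± 1.54 TPM, the Cow gene 13.7 ± 4.08 TPM, the WDR12 gene 5.66 ± 0.539 TPM, the trithorax gene 3.47 ± 1.06 TPM and the carboxypeptidase gene 1.46 ± 0.238 TPM. The Cow gene thus stood next to Skp in early instars, where these 2 genes overlapped and the other neighbours did not, and last in late instars. For the carboxypeptidase gene the late over early ratio of means was 2.42 in TPM and 1.65 in CPM. The ratio was also higher in TPM than in CPM for WDR12 (1.58 and 1.28) and Skp (1.49 and 1.28). The same held for trithorax (1.06 and 1.02) and Cow (0.0999 and 0.0872), and the cause of the gap was not tested. The isoforms of the carboxypeptidase gene also differed in length between stages, with a TPM-weighted mean of 6134 ± 662 bp in late instars and 7601 ± 782 bp in early instars. These means rest partly on few counts. Contigs of 285 to 1851 bp held 11.2%, 19.7% and 15.6% of the TPM in late replicates 1, 2 and 3 on 19, 26 and 8 counts. In early replicates 1, 2 and 3 they held 16.8%, 0% and 20.3% on 27, 0 and 10 counts.

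The sum of each gene without its listed isoform is given as a description with no test. Because the listed isoform was chosen for its difference between the stages and is at 0 in 1 of them, taking it out shifts the rest toward the opposite stage. The rest of the trithorax gene had 66.6, 65.7 and 56.4 CPM in late instars, against 43.8, 39.4 and 37.7 CPM in early instars, so the late values were those of the whole gene and the early ones were smaller by i5. The rest of the WDR12 gene had 231 ± 24.8 CPM in late instars and 129 ± 7.33 CPM in early instars. The rest of the carboxypeptidase gene had 65.6 ± 10.7 CPM in late instars and 18.2 ± 5.54 CPM in early instars.

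The rest of the Cow gene lay on the same side as the gene itself, at 9.03 ± 1.63 CPM in late instars and 62.6 ± 11.8 CPM in early instars, although its listed isoform was an early one. The rest of the Skp gene, whose listed isoform was a late one, had 62.0, 70.3 and 120 CPM in late instars, against 104, 123 and 141 CPM in early instars. These stages overlapped through late replicate 3 alone.

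**Figure D2:**
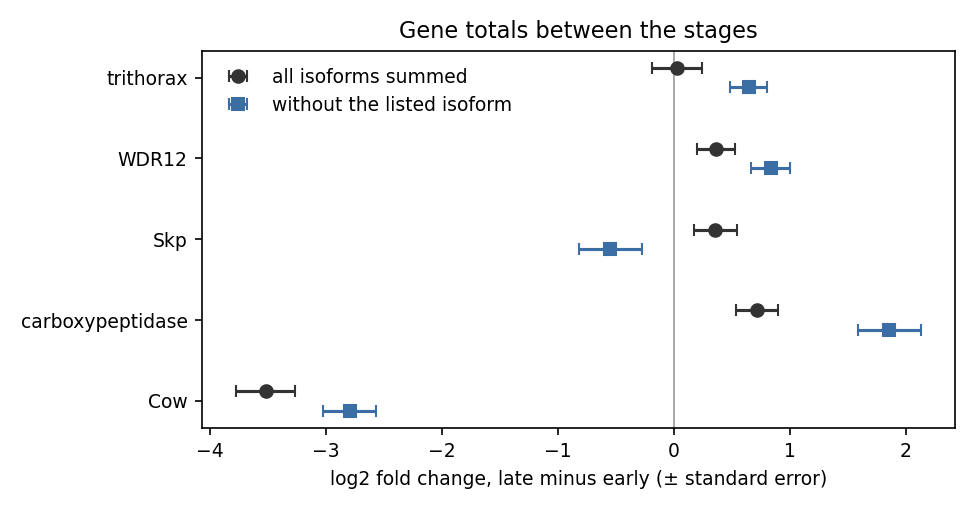
Log2 fold change, late over early, of each whole gene and of the gene without its listed isoform, with bars of 1 SE, where the values without the listed isoform are a description and no test. The trithorax gene lay at 0.03 as a whole and at 0.64 without its listed isoform, and the Skp gene at 0.36 as a whole and at -0.55 without it.

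Turning to single isoforms, 79 of the 91 had a count in some library and 12 were at 0 in all of them. Only 44 passed the filter of more than 1 CPM in at least 2 libraries. The 35 others with counts stayed at or under 3.62 CPM in every library. Apart from the listed ones, 39 isoforms were tested, of which 6 were called higher and 7 lower in late instars (15.4% and 17.9%). Over all 52913 isoforms tested the shares were 5.01% higher and 4.25% lower. An isoform present in 1 stage only can pass the filter through that stage alone, so these shares describe the isoforms that passed and not all members. The other 26 were not called. The stages did not overlap in 26 of the 39, beside 32.9% of all isoforms tested. The genes were chosen by a listed isoform at 0 in 1 stage, and reads may be divided between it and its siblings. The sibling shares here and in the next paragraph may therefore be partly set by that choice.

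An isoform was taken as on in 1 stage only if it had more than 1 CPM in all 3 libraries of that stage and a count that rounded to 0 in all 3 of the other. By this rule 6 isoforms were on only in late instars and 9 only in early instars, or 5 and 5 without the listed ones. Over all tested isoforms the shares were 1.26% for late and 0.425% for early instars. All 5 listed isoforms were of this kind, so every one of these genes had such an isoform by the way it was chosen. The trithorax and carboxypeptidase genes, of 23 and 17 isoforms, had isoforms of both kinds. So did 10 (1.54%) of the 650 tested genes with several isoforms and at least 1 on only in 1 stage, these members included. All 10 were among the 411 of those genes that had 6 or more isoforms. In the other 3 genes the isoforms on in 1 stage were all of the same stage.

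**Figure D3:**
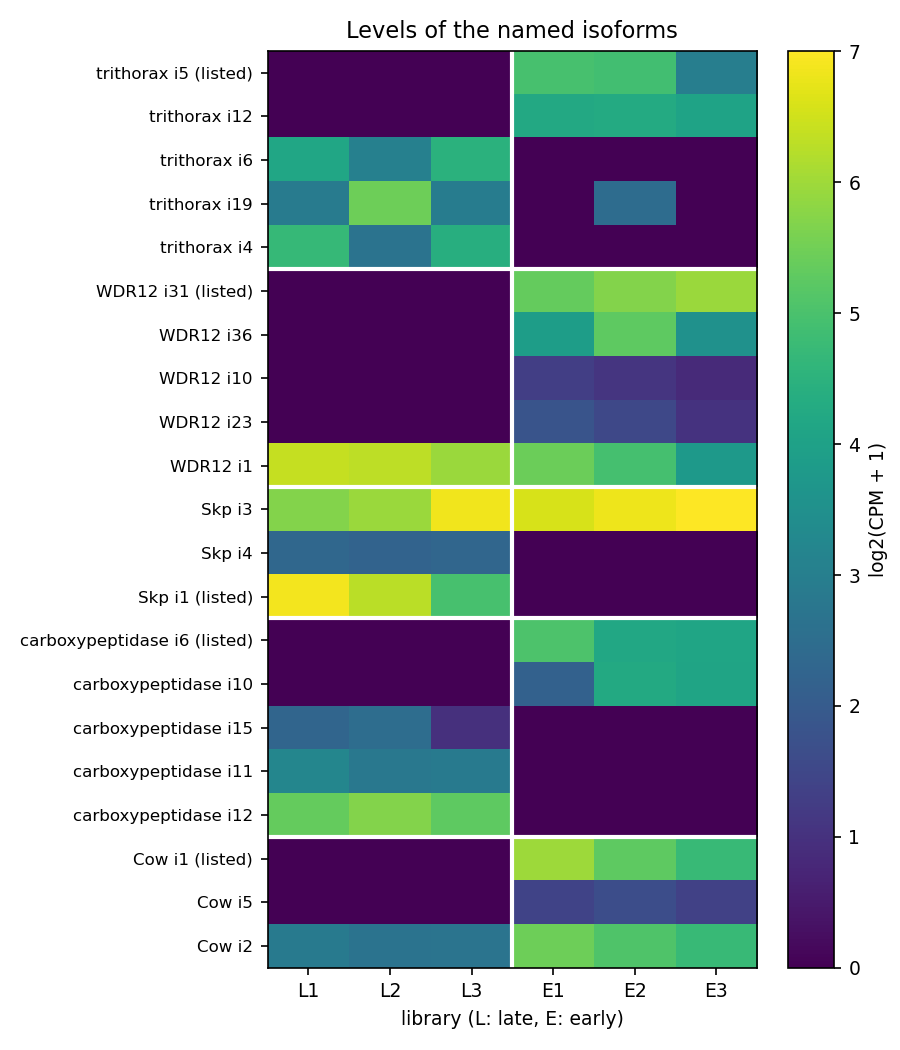
CPM of the isoforms of the 5 genes named by rule, as set out under the processing, and not of every tested isoform. Levels are given for each library on a log2(CPM + 1) colour scale, with late libraries left of early ones. Rows at 0 in all 3 libraries of a stage include the 15 isoforms on in 1 stage only, of which 6 were late and 9 early.

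In the trithorax gene, pairs of isoforms on only in late instars stood against pairs on only in early instars, while the summed level hardly differed. The listed isoform i5 (5214 bp) had 0 counts in all late libraries, against 1395, 305 and 160 counts in early replicates 1, 2 and 3. It made up 36.9%, 41.5% and 15.5% of the TPM of its gene in the early libraries and was at least 569-fold lower in late instars. Such bounds set the 0 against 3 counts over the 3 libraries of the stage and cover counting error only. They rest on the depth of the libraries at 0: without late replicate 1 the bounds of early isoforms were 1.88 times smaller, without late replicate 2 1.53 times, and without early replicate 1 those of late isoforms were 2.38 times smaller. Isoform i12 (5283 bp) had 0 counts in late instars, against 819, 201 and 357 counts in the early pools, at least 452-fold lower in late instars (adjusted p = 0.00334, edgeR quasi-likelihood). Like every isoform at 0 in a whole stage, here and below, i12 passed the filter through the other stage alone. Such p-values describe only isoforms that passed in this way.

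Isoform i4 (5923 bp) had 904, 146 and 296 counts in late instars and 0 in all early libraries, at least 447-fold higher in late instars (adjusted p = 0.0155, edgeR quasi-likelihood). Its call was lost without late replicate 3 (adjusted p = 0.0528). Isoform i6 (5992 bp) had 613, 195 and 312 counts in late instars and none in the early libraries, at least 402-fold higher (adjusted p = 0.00908, edgeR quasi-likelihood). Isoforms i4 and i6 together held 56.5%, 17.1% and 68.2% of the trithorax TPM in late replicates 1, 2 and 3, while i5 and i12 together held 58.2%, 68.5% and 49.6% in early replicates 1, 2 and 3.

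Late replicate 2 stood apart in this gene. There, isoform i19 (5922 bp) had 1172 counts and 59.3% of the TPM, against 9.0% and 11.2% in late replicates 1 and 3 and 0, 5.8 and 0% in the early libraries. The stages of i19 did not overlap in CPM, but with 18.9 ± 21.2 CPM in late instars and 1.51 ± 2.62 CPM in early instars it was not called (adjusted p = 0.359, edgeR quasi-likelihood). The most abundant trithorax isoform was therefore i4, i19 and i6 in late replicates 1, 2 and 3, and i5, i5 and i12 in early replicates 1, 2 and 3. The 8 tested trithorax isoforms that were not called had adjusted p-values from 0.131 to 0.954 (edgeR quasi-likelihood).

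**Figure D4:**
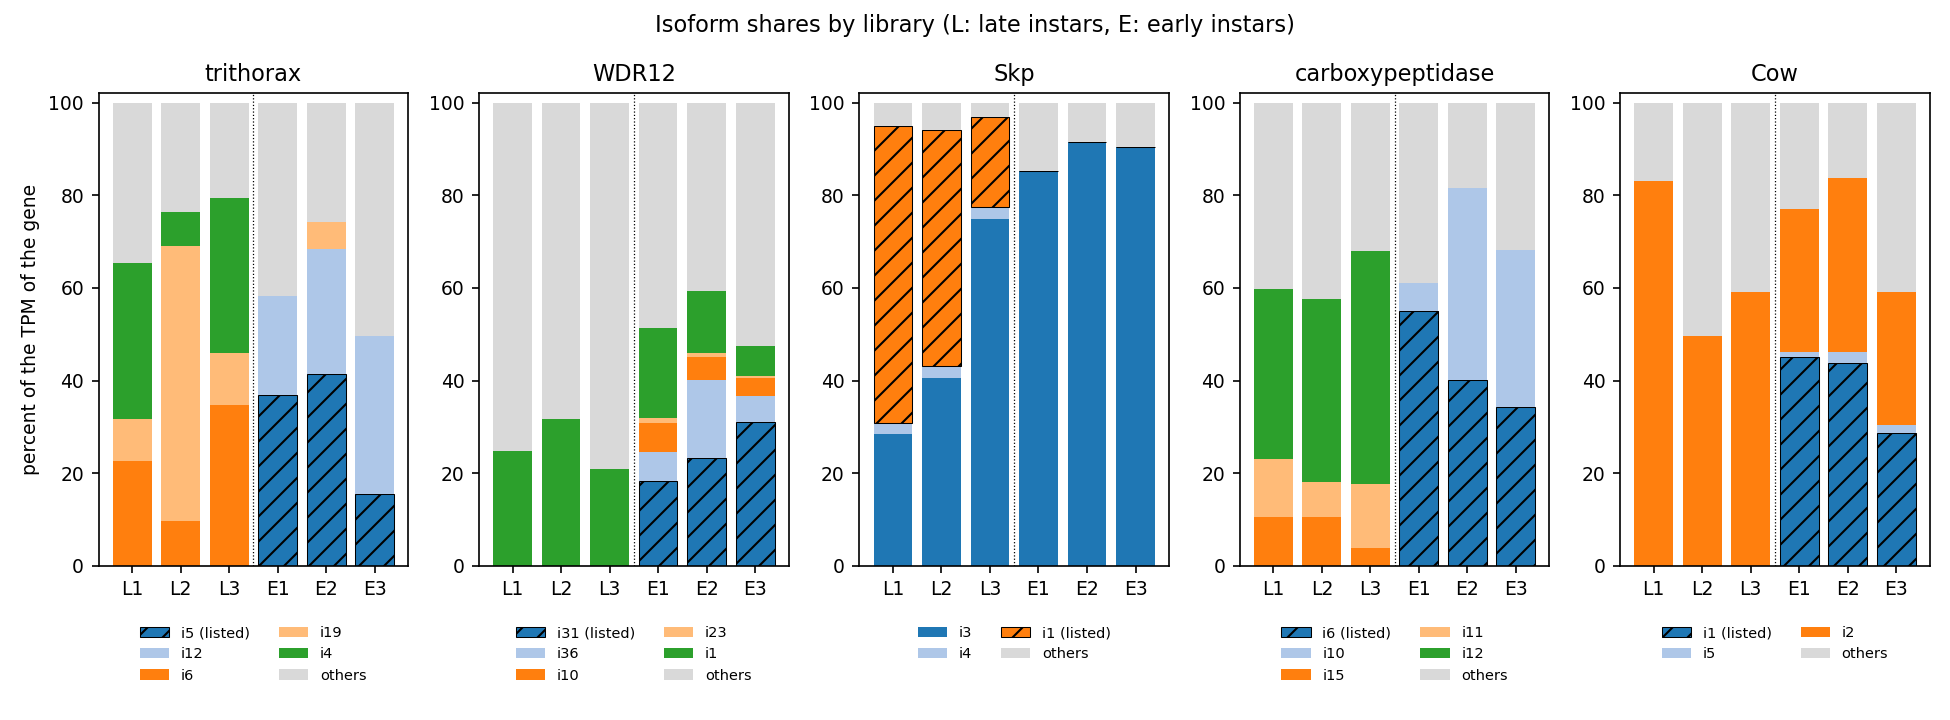
Share of the TPM of its gene held by each main isoform in every library, with late libraries left of early ones and the remaining isoforms pooled. In the carboxypeptidase gene i12 held 36.7%, 39.6% and 50.4% in late libraries and 0% in early ones, and in the Skp gene i3 held 74.8% in late replicate 3.

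In the WDR12 gene, whose main contigs exceed those of the other 4 genes in length, early instars had isoforms with no counts in late instars, but none was on only in late instars by the rule above. The listed isoform i31 (10191 bp) had 0 counts in late instars, against 1845, 552 and 1388 counts in early instars. It held 18.2%, 23.3% and 31.1% of the WDR12 TPM in the early libraries, at least 1319-fold lower in late instars. Isoform i36 (10230 bp) had 0 counts in late instars, against 646, 402 and 246 counts in the early pools, at least 539-fold lower (adjusted p = 0.012, edgeR quasi-likelihood). Its early level was highest in early replicate 2, without which the bound was 322-fold.

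The fainter isoforms i23 (10510 bp) and i10 (1223 bp) were also called lower in late instars, with 0 counts in late instars, against 1.81 ± 0.739 and 1.12 ± 0.330 CPM in early instars (adjusted p = 0.0261 and 0.0476, edgeR quasi-likelihood). Leaving out any 1 early library ended the call of i23 (adjusted p from 0.0617 to 0.112), and leaving out late replicate 1, late replicate 3 or early replicate 3 ended that of i10 (adjusted p from 0.0596 to 0.0979). Without early replicate 1 or early replicate 2, i10 fell under the filter and was not tested, so with 1 library left out its call held only without late replicate 2.

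No single WDR12 isoform was called higher in late instars. The isoform whose share moved most against i31 over all libraries was i1 (10264 bp), present in both stages with 73.9 ± 12.0 CPM in late instars and 28.3 ± 14.9 CPM in early instars. It held 25.8 ± 5.50% of the WDR12 TPM in late instars and 13 ± 6.40% in early instars. Its stages did not overlap in CPM, and its log2 fold change of 1.39 (SE 0.44) had an adjusted p of 0.118 in edgeR's quasi-likelihood test, with a range of 0.0131 to 0.247 over the alternatives. It passed with the exact test, with DESeq2 and with no filter. Which isoform moved most depended on single libraries: it was i20, by 19.4 percentage points against 9.43 for i1, without early replicate 3, and i37, by 10.4 against 9.75 for i1, without late replicate 2.

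Isoform i20 (10279 bp) showed how uneven the WDR12 isoforms were between early pools. It had 2599, 1573 and 1126 counts in late replicates 1, 2 and 3, against 878, 0 and 1501 counts in early replicates 1, 2 and 3 (adjusted p = 0.69, edgeR quasi-likelihood), and it was the most abundant WDR12 isoform of early replicate 3. Isoforms i17 (10303 bp) and i37 (10318 bp), singled out after their values were seen, averaged 36.9 ± 2.62 and 35.8 ± 13 CPM in late instars, against 13 ± 9.86 and 6.17 ± 5.92 CPM in early instars (adjusted p = 0.275 and 0.299, edgeR quasi-likelihood). Both had non-overlapping stages without passing the test. The 10 tested WDR12 isoforms that were not called had adjusted p-values up to 0.988.

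In the Skp gene, an isoform on only in late instars stood beside another that both stages used. The listed isoform i1 (2103 bp) had 4257, 2084 and 447 counts in late replicates 1, 2 and 3 and 0 in all early libraries, at least 1991-fold higher in late instars. Its level varied among the late pools, at 117, 77.0 and 30.5 CPM, and its share of the Skp TPM was 64.2%, 51.1% and 19.6%. The isoform i3 (2077 bp) held 28.5%, 40.5% and 74.8% of the Skp TPM in late replicates 1, 2 and 3, against 85.3%, 91.6% and 90.4% in the early ones.

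Every late pool had a smaller share of i3 than every early pool, but its CPM overlapped between stages. It had 51.1, 60.3 and 115 CPM in late instars, against 95.1, 113 and 127 CPM in early instars (log2 fold change -0.57, SE 0.34, adjusted p = 0.384, edgeR quasi-likelihood). Isoforms i1 and i3 together held 92.9 ± 1.39% of the Skp TPM in late instars and 89.1 ± 3.37% in early instars. Late replicate 3 had the lowest i1 and the highest i3 share of the late pools.

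A minor isoform, i4 (2055 bp), had 148, 101 and 58 counts in late instars and counts that rounded to 0 in early instars, at least 104-fold higher in late instars (adjusted p = 0.00733, edgeR quasi-likelihood). At 3.91 ± 0.163 CPM in late instars it varied less between pools than i1 did. Isoform i6 (1782 bp), the shortest of the gene, had 5.85 ± 1.65 CPM in late instars and 11.2 ± 2.49 CPM in early instars and was not called (adjusted p = 0.159, edgeR quasi-likelihood).

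In the carboxypeptidase gene, isoforms of both stages again stood opposite each other, and here 1 late isoform dominated every late pool. The listed isoform i6 (9318 bp) had 0 counts in late instars, against 1495, 188 and 373 counts in the early pools, at least 574-fold lower in late instars. Isoform i10 (9276 bp) had counts that rounded to 0 in late instars, against 161, 194 and 366 counts in the early pools, at least 326-fold lower (adjusted p = 0.0192, edgeR quasi-likelihood). The call of i10 was lost without early replicate 2 (adjusted p = 0.0646) and without early replicate 3 (adjusted p = 0.0643). These isoforms divided the early pools differently. In early replicate 1, i6 held 55.1% of the gene's TPM and i10 5.95%. In early replicates 2 and 3 the shares were close, at 40.1% and 34.3% for i6 and 41.6% and 33.8% for i10.

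Isoform i12 (9235 bp) had 1450, 1374 and 555 counts in late instars and 0 in early instars, at least 1140-fold higher in late instars (adjusted p = 0.00296, edgeR quasi-likelihood). It held 36.7%, 39.6% and 50.4% of the carboxypeptidase TPM in late replicates 1, 2 and 3. Isoform i11 (5735 bp) had 303, 162 and 93 counts in late instars and 0 in early instars, at least 183-fold higher (adjusted p = 0.00556, edgeR quasi-likelihood). Its near twin in length, i8 (5734 bp), was present in both stages at 6.42 ± 3.27 CPM in late instars and 4.45 ± 1.81 CPM in early instars (adjusted p = 0.654, edgeR quasi-likelihood). Of these isoforms of nearly equal length, only i11 was called.

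The short isoform i15 (3278 bp) was called higher in late instars, with 143, 125 and 14 counts there and 0 in early instars (adjusted p = 0.0281, edgeR quasi-likelihood), a call that leaving out any 1 early library ended (adjusted p from 0.054 to 0.0663). Without late replicate 1 or late replicate 2, i15 fell under the filter and was not tested, so with 1 library left out its call held only without late replicate 3. Isoform i17 (3164 bp), named after its values were seen, had 193, 121 and 6 counts in late instars and 0 in early instars and missed the threshold (adjusted p = 0.0535, edgeR quasi-likelihood). Late replicate 3 had few counts of both.

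In the Cow gene there was no late isoform to set against the early ones, since all 6 tested isoforms averaged less in late instars. The listed isoform i1 (2205 bp) had 0 counts in late instars, against 2868, 408 and 576 counts in the early pools, at least 1086-fold lower in late instars. Isoform i2 (2236 bp) had 231, 146 and 80 counts in late instars, against 1996, 356 and 584 counts in early instars. It was lower in late instars too (log2 fold change -2.56, SE 0.27, adjusted p = 0.00522, edgeR quasi-likelihood). Its share was 83.1%, 49.7% and 59.2% of the Cow TPM in late instars, against 30.9%, 37.6% and 28.7% in early instars. The early shares were divided with the listed i1, which was picked for its difference between the stages. Without i1 the fitted log2 fold change of the gene was -2.80 (SE 0.23), close to that of i2. The rise in the share of i2 may therefore be largely set by that choice.

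A faint isoform, i5 (2284 bp), had 0 counts in late instars, against 77, 23 and 36 counts in the early pools (adjusted p = 0.0211, edgeR quasi-likelihood), and leaving out any 1 early library ended its call (adjusted p from 0.0712 to 0.0851). The other 3 tested Cow isoforms had adjusted p-values from 0.244 to 0.565 (edgeR quasi-likelihood). One of them, i8 (2184 bp), chosen after its values were seen, had 0, 0 and 53 counts in late replicates 1, 2 and 3, against 112, 0 and 576 counts in early replicates 1, 2 and 3. It was the most abundant Cow isoform of early replicate 3, with 29.0% of the TPM, and had no count in early replicate 2.

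In the trithorax gene the main isoforms of the stages fell in different classes of length. In classes of length set after the lengths were seen, and so given with no test, the 3 trithorax isoforms of 5214 to 5288 bp held 0, 0 and 1.87% of the TPM in late replicates 1, 2 and 3, against 68.2%, 77.2% and 67.0% in early replicates 1, 2 and 3. The 13 isoforms of 5794 to 5996 bp held 84.3%, 88.3% and 85.1% in late instars, against 11%, 5.8% and 11.9% in early instars. Late replicate 2, in which i19 led, was close to the other late pools in these classes.

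In the WDR12 gene the classes lay closer together. The 4 isoforms of 10264 to 10318 bp (i1, i20, i17 and i37) held 74.5 ± 7.24% of the TPM in late instars and 35.9 ± 11.9% in early instars, and the 10 isoforms of 10096 to 10237 bp held 3.33 ± 3.63% in late instars and 46.6 ± 9.83% in early instars. Both classes were free of overlap between the stages. The class of 10096 to 10237 bp holds the listed i31, with 24.2 ± 6.48% in early instars, so the shares of both may be partly set by its choice. In the carboxypeptidase gene the 6 isoforms of 9235 to 9432 bp held 46.4 ± 11.2% in late instars and 71.3 ± 9.22% in early instars. They include the leading isoforms of both stages, among them the listed i6. The 3 isoforms of 3164 to 3278 bp held 25.4%, 21.0% and 5.54% in late instars, against 0.79%, 5.27% and 0% in early instars.

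Between each listed isoform and the one whose share moved most against it, the isoform favoured in late instars was longer by 709 bp in trithorax, 73 bp in WDR12, 26 bp in Skp and 31 bp in Cow, and shorter by 83 bp in carboxypeptidase. In trithorax the isoform that moved most was i19 in place of i4 without late replicate 1, late replicate 3 or early replicate 2, with a difference of 708 bp, and in WDR12 the difference was 88 bp with i20 and 127 bp with i37. What sequence these differences hold was not analysed here.

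**Figure D5:**
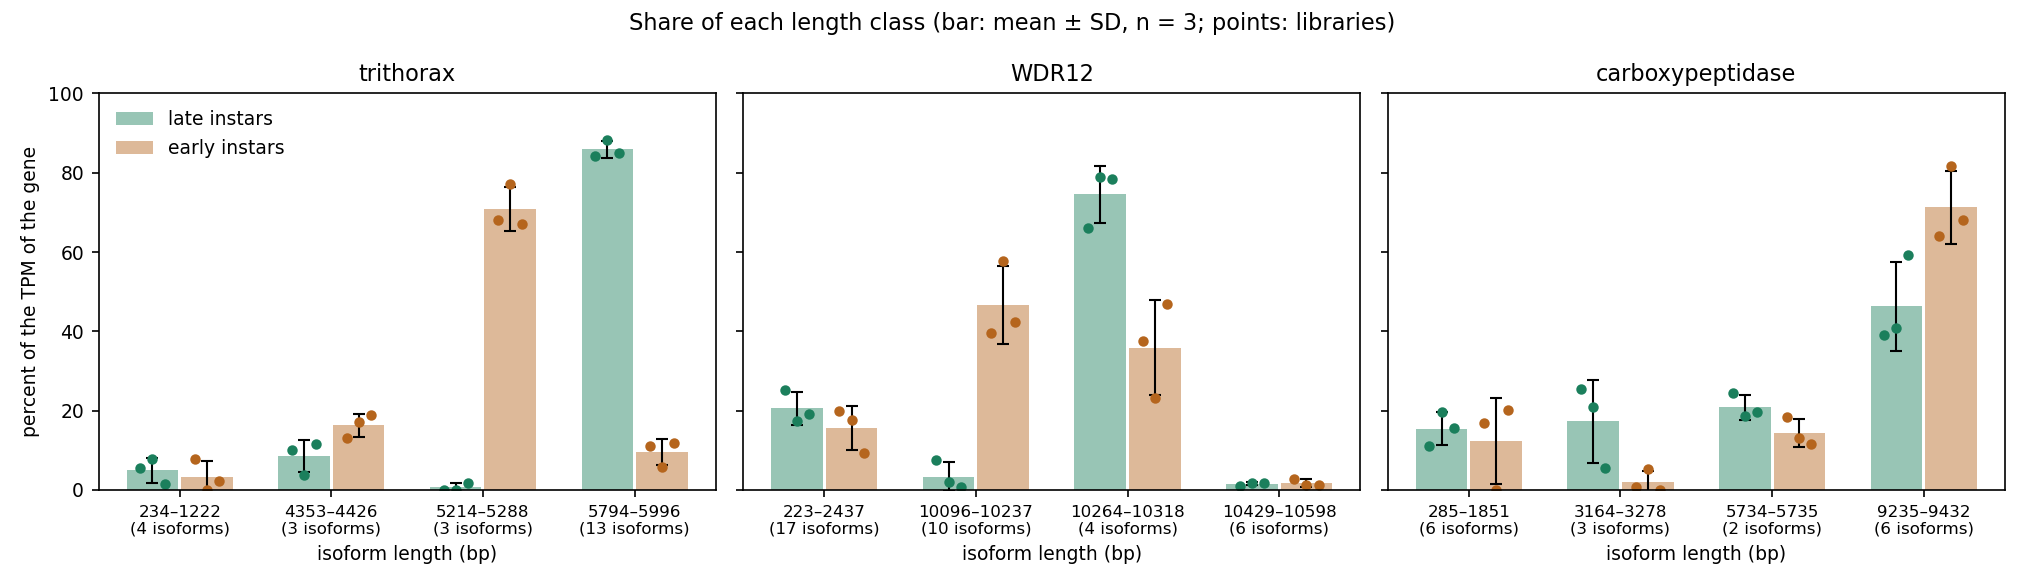
Share of the TPM of the trithorax, WDR12 and carboxypeptidase genes held by classes of isoform length in each library, with late libraries left of early ones. The trithorax class of 5214 to 5288 bp, which holds the listed isoform i5, held at most 1.87% in late libraries and at least 67.0% in early ones.

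The genes most like these in level over the 6 libraries, by Pearson's r of log2(CPM + 1) among 22127 other genes, have no name in the sources used here. For trithorax the closest gene, TRINITY_DN19217_c1_g3, had r = 0.980 and only 16 genes reached 0.95. For WDR12 the closest was TRINITY_DN19708_c0_g1 (r = 0.999, 627 genes at 0.95 or more), for Skp TRINITY_DN16951_c0_g1 (r = 0.998, 194 genes) and for carboxypeptidase TRINITY_DN17915_c1_g3 (r = 0.996, 786 genes). For Cow, 1824 genes reached 0.95, among them the closest, TRINITY_DN21372_c1_g2, which had 0.670 ± 0.160 CPM in late instars and 7.02 ± 1.5 CPM in early instars. These correlations describe 6 libraries that share 2 stages.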

How the data were processed

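Per the labels and the paper, paired-end reads were trimmed by the authors (Trimmomatic 0.36, checked with FastQC 0.11.7), the reads of all libraries were assembled together with Trinity, and abundance was estimated with RSEM, in a version not given in the sources used here. For every isoform and library, the authors deposited an expected count without normalization, TPM and FPKM scaled within the library, and the percent of the gene's TPM that the isoform holds. FPKM was not used.

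Expected counts were rounded to whole numbers here. Isoforms, genes (isoforms summed), and genes without the listed isoform entered edgeR 4.0.16 under R 4.3.3 (TMM, glmQLFit, glmQLFTest, stage as the only factor, more than 1 CPM in at least 2 libraries). The values without the listed isoform are given as a description, with no p, because the study picked that isoform on these libraries. SEs are those implied by the F statistic. The alternatives were edgeR's exact test, DESeq2 1.42.0, RLE factors, no filter or filterByExpr, the study's limits (adjusted p of at most 0.001 and log2 fold of at least 2 in size), the replicate number as a block, each library left out, other minimum levels for an isoform to be on, and shares of counts in place of TPM. Fold bounds and the choice of the isoform that moved most were recomputed with each library left out, which was added after seeing the data. The steps were tested on simulated data. At isoform level the quasi-likelihood test called 3 of 100 isoforms changed by a log2 fold of 2 and 35 of 100 changed by 4. At gene level it called 89 and 99 of 100. An isoform not called here may therefore still differ. The exact test called 32 and 92 of 100 such isoforms, and DESeq2 56 and 90. They also called 250 and 322 unchanged isoforms, against 2 by the quasi-likelihood test. In the simulation only 100 features of each size were changed, among 52913 isoforms or 22132 genes. The fits of the real libraries called 9.26% of the isoforms and 29.7% of the genes. Adjusted p-values depend on how many features change, so the simulated numbers need not hold for these data.

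Named in full are the listed isoforms, the isoform of each gene whose share moved most against it, the leading isoform of each stage, those on in 1 stage only and those called. WDR12 i17, i20 and i37, Skp i6, carboxypeptidase i8 and i17, and Cow i8 are named outside this rule, with their values known. The members, lists and tests were chosen with earlier results of these data known. A library had between 11177800 and 46307057 counts, so 1 CPM rests on 11.2 to 46.3 counts. Genome positions, sequences and pathway lists were not analysed here, since no annotation of these contigs was used.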

Additional observations from a re-analysis of the deposited data

How the results depend on the processing

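Of the tests of the 5 genes, those of Cow, WDR12 and Skp kept their direction and side of the threshold in every alternative. The trithorax gene ranged from a log2 fold change of -0.15 to 0.16 with 1 library left out. The carboxypeptidase gene, at 0.72, was not called with the exact test or at the study's limits (0.72), and ranged from 0.61 to 0.85 with 1 library left out. Of the genes without the listed isoform, given with no test, the fitted log2 fold change was 0.64 for trithorax with the exact test, 0.66 with no filter and 0.60 to 0.72 with 1 library left out. It was 0.84 for WDR12 and 1.86 for carboxypeptidase with all libraries, and -0.88 to -0.36 for Skp with 1 library left out.

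The number of isoforms called depended on the test and the filter. Besides the listed ones, 13 of the 39 isoforms were called higher and 11 lower by the exact test, and 11 higher and 10 lower by DESeq2, against 6 and 7. Of all 52913 isoforms, the exact test called 3782 higher and 3059 lower and DESeq2 5552 and 5029, against 2651 and 2250. With no filter 74 isoforms besides the listed ones were tested, and 14 were called higher and 9 lower, beside 3813 and 2617 of all 223352. The same 13 isoforms were among those called in each. With 1 library left out, 5 to 7 were called higher and 3 to 8 lower, with 3 or 4 lower without an early library. Without an early library the lower calls over all isoforms tested were also fewer, at 910 to 1298 against 2250. At the study's limits 0 were called higher and 0 lower by the quasi-likelihood test with the filter on low counts. That test called 0 higher and 0 lower of all 52913 isoforms at these limits (smallest adjusted p = 0.00247), so the 0 is not particular to these isoforms. Of the 39, 25 had an unadjusted p under 0.05. The same test with no filter called 6 higher and 4 lower at these limits, and the exact test and DESeq2 called 15 each. Over all isoforms the calls at these limits were 1402 higher and 489 lower of 223352 with no filter. They were 2157 and 1116 of 52913 by the exact test and 2569 and 1750 of 52913 by DESeq2. Late replicates 1 and 3 deviated most alike with the early library of the same replicate number (r = 0.111 and 0.221 over genes). Late replicate 2 had r = 0.020 with early replicate 2 and 0.047 with early replicate 1, both small. The replicate block left 0 of the 39 isoforms called in either direction (smallest adjusted p = 0.053, 23 with an unadjusted p under 0.05). Over all 52913 isoforms it left 230 called higher and 125 lower, against 2651 and 2250 without it, so the loss was not particular to these isoforms. It changed no call of a whole gene (Cow gene adjusted p = 0.000239). By shares of expected counts in place of TPM, the late minus early difference of carboxypeptidase i12 was 64.1 percentage points, against 42.2. The counts of isoforms on in 1 stage only ranged from 5 to 9 for late and 7 to 11 for early instars over all alternatives. With 3 libraries a stage, isoforms whose share varies between pools, such as WDR12 i20, could not be resolved. The causes were not tested.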
